A study of Macaca mulatta with 449 samples.

Results

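The alpha and delta subunits of the GABA-A receptor considered here are encoded by GABRA2, GABRA3, GABRA4, GABRA5, GABRA6 and GABRD. The 6 genes were taken by symbol from a table of 30807 genes, whatever their level, and all 6 had a row. RNA was sequenced from 1 sample of each of 51 dissected brain sub-regions in each of 8 healthy rhesus macaques. The animals came from 1 source, lived outdoors in groups and received no treatment that the sources name. Of the 4 young animals, Rhesus 4 was a female of 3.2 years, Rhesus 10 a female of 5 years, Rhesus 7 a male of 4 years and Rhesus 8 a male of 3.8 years. Of the 4 mid-aged animals, Rhesus 2 and Rhesus 3 were males of 10 years, Rhesus 6 was a female of 10 years and Rhesus 11 a female of 9.8 years. The sub-regions were 31 areas of neocortex and limbic cortex (below, the cortex), 3 parts each of the hippocampus and striatum, 2 of the cerebellum, and 12 structures sampled once per animal.

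GABA-A receptors are chloride channels built from 5 subunits around a central pore, and they carry most fast inhibition in the brain. Most receptors combine alpha and beta subunits with a gamma subunit and sit at synapses, where benzodiazepines enhance them. Receptors with alpha2 or alpha3 are among these. Receptors that hold the delta subunit, usually with alpha4 in the forebrain or alpha6 in cerebellar granule cells, lie outside synapses, respond to low ambient GABA and to neurosteroids, and give a steady (tonic) inhibition. Receptors with alpha5 are also largely extrasynaptic and are known best from hippocampal pyramidal cells.

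Most of these genes lie in subunit clusters. By the order of genes in RefSeq, GABRA2 and GABRA4 share chromosome 5 with GABRG1 and GABRB1, GABRA5 lies beside GABRG3 on chromosome 7, GABRA6 shares chromosome 6 with GABRB2, and GABRA3 lies beside GABRQ on the X chromosome. GABRD stands apart from the other subunit genes, between PRKCZ and CFAP74 on chromosome 1. The assembly with this order is not the one on which reads were counted, so positions are not given.

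The samples held 7784678 to 31083490 counts assigned to genes, with a median of 10698602. Levels below are in CPM, the raw counts scaled to the library size, given as mean ± SD over 8 animals. The counts of structures with several sub-regions were first added up within each animal. The cortical values and ranges that region groups are set against are such sums over 31 sub-regions, and single sub-regions can lie outside them. CPM is not corrected for transcript length, so levels were compared between regions for 1 gene and never between genes. The pieces of tissue mix cell types, and fewer cells of a type cannot be told apart from less RNA per cell. Marker genes of the region-specific cell types peaked in the labelled region for the cerebellum, striatum, thalamus, hypothalamus, pituitary, substantia nigra and corpus callosum. The olfactory bulb was checked on 2 genes only, and the pons and medulla on 1 gene, which was highest in the ventral tegmental area. A few libraries stood apart in marker genes. Of the groups compared with the cortex, 2 libraries with raised markers of a nearby region were followed up. The hypothalamus of Rhesus 6 had a mean log2 level of cortical glutamatergic markers of 6.04 against a median of 1.71 in that region, and the globus pallidus of Rhesus 3 had 5.53 for striatal medium spiny neuron markers against a median of 3.35. The medulla of Rhesus 6 had the lowest neuron markers of its group (5.16 against a median of 8.97) and the highest oligodendrocyte markers (11.82 against 10.94). The substantia nigra of Rhesus 4 had cortical glutamatergic markers at 2.74 against a median of 0.98, and lesser departures in other groups are not all listed. The accumbens of Rhesus 10 and the putamen of Rhesus 3 are described with the striatum.

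All 6 genes differed across the 16 region groups (edgeR quasi-likelihood F test with Benjamini-Hochberg adjustment, FDR between 3.44e-104 and 8.27e-37). Among all genes tested, 99.7% did, so this count is at the background. Against the cortex, with the animal as a block, an FDR under 0.05 and at least a 2-fold difference, 54 of the 90 pairs of a member and a region group were called. Over all genes 24.5% of such pairs were called. The members' calls were 6 higher and 48 lower than the cortex, where all genes had 12.3% higher and 12.2% lower. All these comparisons share the cortical libraries, so they are not independent of each other.

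The members were called most often in the cerebellum, pituitary and corpus callosum. In the cerebellum all 6 were called (25.7% of all genes), 2 higher and 4 lower. In the pituitary all 6 were called lower (23.3% of all genes called lower, 44.7% called), as they were in the corpus callosum (24% lower, 44.2% called). The globus pallidus had 5 called members (34.8% of all genes) and the pons 5 (24.9%). The ventral tegmental area and the medulla had 4 each (28.3% of all genes in either), and the substantia nigra 4 (28%). Of the other groups, the hippocampus had 4 called members (12.4% of all genes), the hypothalamus 3 (18.6%), and the striatum 2 (16.9%) and thalamus 2 (19.7%). The amygdala (9.54%), the entorhinal and perirhinal cortex (8.92%) and the olfactory bulb (22.5%) had 1 each. With only 6 members, 1 gene is a large share, and no share was tested against the background.

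Markers of whole cell classes moved with these groups. The mean log2 level of 7 neuron markers was 9.84 in the cortex, 5.26 in the corpus callosum, 5.07 in the pituitary and 7.58 in the globus pallidus. All 7 lay wholly below the cortical range in the corpus callosum and pituitary and 6 did in the globus pallidus, and none had a median of 0. The mean of 6 oligodendrocyte markers was 7.10 in the cortex, 12.29 in the corpus callosum, 11.39 in the globus pallidus and 1.90 in the pituitary. In the 4 brainstem groups all 6 of these lay above the cortical range, with means of 9.89 to 11.09, and the neuron marker means were 8.49 to 9.45. In the cerebellum the means were 9.55 for neuron and 7.50 for oligodendrocyte markers. Their part in the members' differences was not tested. The 4 members called in the medulla were called there without Rhesus 6 too.

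**Figure D1:**
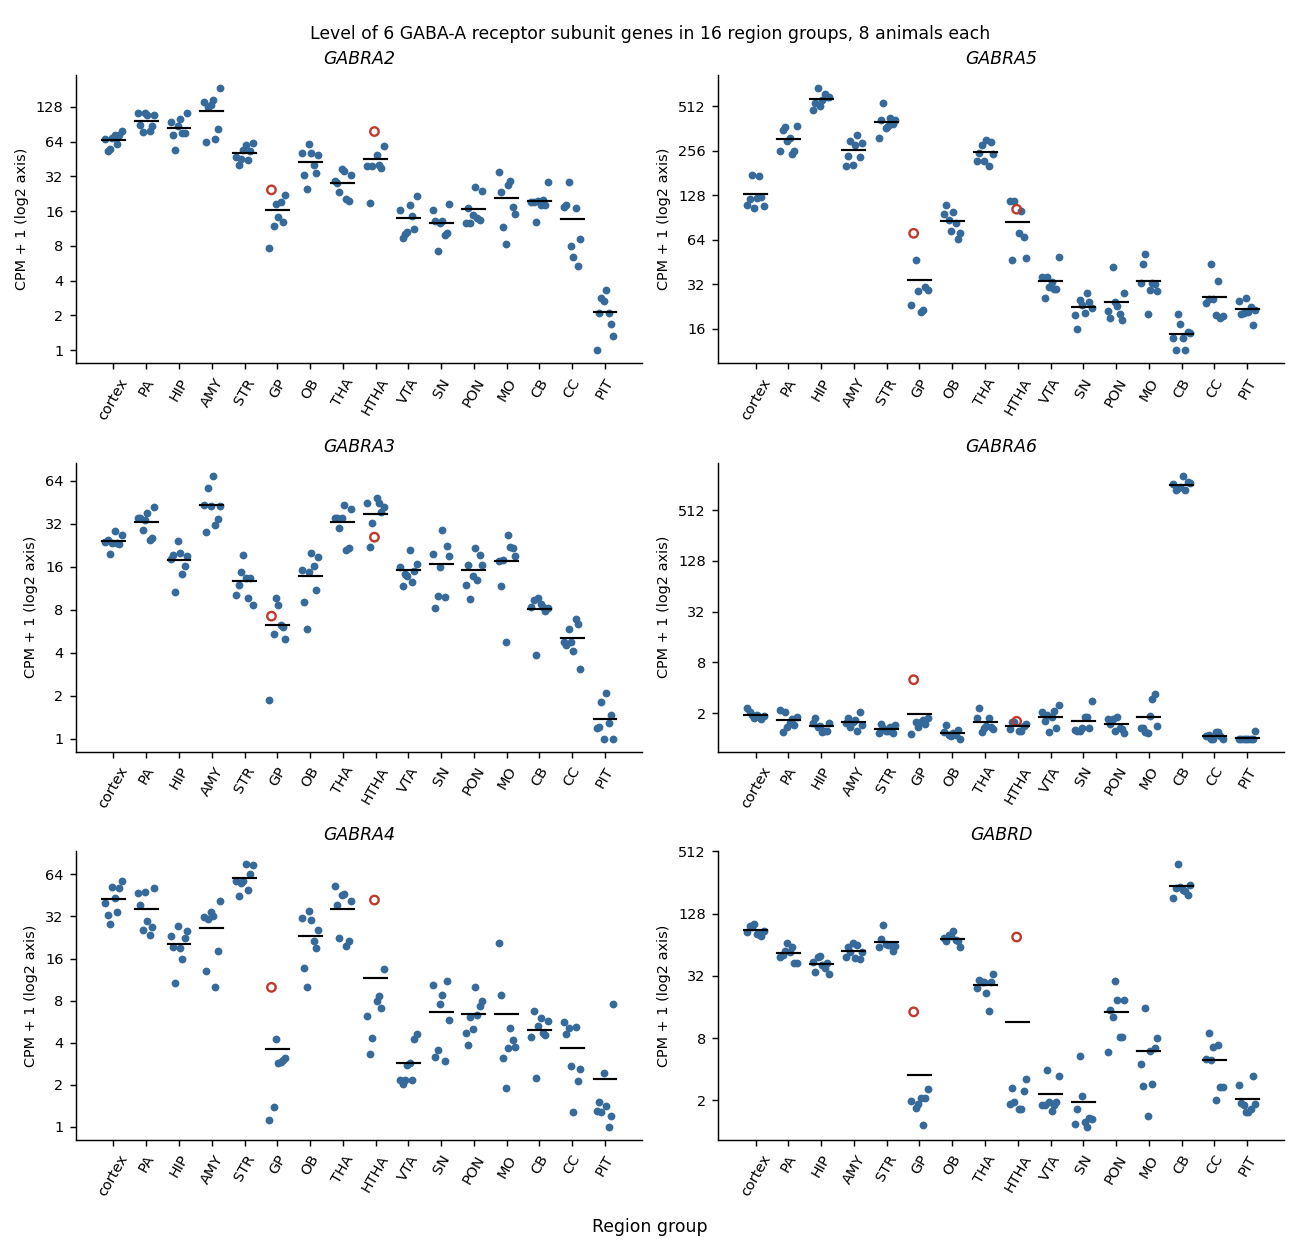
CPM + 1 on a log2 axis for each of the 6 genes in the 16 region groups, with 1 point per animal and a bar at the mean of 8. PA is the entorhinal and perirhinal cortex, HIP the hippocampus, AMY the amygdala, STR the striatum, GP the globus pallidus, OB the olfactory bulb, THA the thalamus, HTHA the hypothalamus, VTA the ventral tegmental area, SN the substantia nigra, PON the pons, MO the medulla, CB the cerebellum, CC the corpus callosum and PIT the pituitary. The open red circles are the hypothalamus of Rhesus 6 and the globus pallidus of Rhesus 3. GABRA6 lies between 873 and 1298 CPM in the cerebellum and at most at 3.98 CPM elsewhere, and GABRA5 has its highest mean in the hippocampus.

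GABRA2, which encodes an alpha subunit of synaptic receptors, had its highest mean in the amygdala. Its values there ran from 61.9 over a median of 129.6 to 186 CPM, against 52.0, 67.0 and 78.1 CPM in the cortex, and the ranges overlapped. The amygdala was higher than the cortex in 8 of 8 animals, by 0.81 ± 0.22 (SE) on the log2 scale (FDR 0.00186), which did not reach 2-fold. Entorhinal and perirhinal cortex (95.9 ± 15.5 CPM) and hippocampus (82.9 ± 18.4 CPM) followed in order, ahead of the cortex (65.4 ± 9.05 CPM) and the striatum (49.9 ± 7.88 CPM). GABRA2 was called lower than the cortex in 9 of 15 groups and higher in none. These 9 were the thalamus, the globus pallidus, the cerebellum, the 4 brainstem groups (ventral tegmental area, substantia nigra, pons and medulla), the corpus callosum and the pituitary. The smallest of these differences was in the thalamus, at 27.2 ± 6.67 CPM and -1.29 ± 0.23 (SE) on the log2 scale. In the pituitary, which is no brain tissue, the values lay between 0 and 2.34 CPM.

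GABRA3, another alpha subunit of synaptic receptors, had the fewest calls of the 6. It was called lower than the cortex in 4 of 15 groups, the globus pallidus (5.26 ± 2.39 CPM), cerebellum (7.05 ± 1.81 CPM), corpus callosum (4.04 ± 1.25 CPM) and pituitary (0.380 ± 0.384 CPM), and higher in none. Its order had the amygdala first. The amygdala values were 27.1 at the lowest, 41.2 at the median and 67.9 CPM at the highest, against 18.4, 22.6 and 27.6 CPM in the cortex, a difference of 0.86 ± 0.21 (SE) on the log2 scale (FDR 0.000602) that was under 2-fold. The hypothalamus (36.2 ± 9.59 CPM), the entorhinal and perirhinal cortex (31.8 ± 6.02 CPM) and the thalamus (31.6 ± 8.05 CPM) also stood above the cortex (23.1 ± 2.67 CPM) in their means. Of these 3, the hypothalamus had an FDR of 0.00748 and the other two had FDRs of 0.0826 and 0.0678. In the 4 brainstem groups its means ran from 14.02 CPM in the ventral tegmental area to 16.6 CPM in the medulla, less than 2-fold below the cortex. The striatum, at 7.57, 11.5 and 18.3 CPM, lay below the summed cortical values of all 8 animals. The log2 difference was -0.98 ± 0.22 (SE), just under 2-fold. Single cortical sub-regions lay lower than the striatum, down to a mean of 5.06 CPM in the posterior superior occipital gyrus. The accumbens by itself, at 12.4 to 28.6 CPM, overlapped the cortical sums.

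GABRA4, the alpha subunit that usually joins delta in the forebrain, had its highest mean in the striatum. Its values there were 43.6, 56.5 and 74.8 CPM at the lowest, median and highest, and 27.1, 40.98 and 56.6 CPM in the cortex, so the ranges overlapped. The striatum was the higher in 8 of 8 animals, but the difference of 0.54 ± 0.34 (SE) on the log2 scale did not pass the test (FDR 0.176). The cortex (41.5 ± 10.6 CPM), the entorhinal and perirhinal cortex (35.3 ± 11.1 CPM) and the thalamus (35.1 ± 13.1 CPM) came next. The gene was called lower than the cortex in 10 of 15 groups and higher in none. The hippocampus had 19.4 ± 5.36 CPM, a log2 difference of -1.12 ± 0.35 (SE), and did not overlap the summed cortical values. Lower still were the cerebellum, at 3.97 ± 1.37 CPM and a log2 difference of -3.39 ± 0.39 (SE), and the ventral tegmental area, at 1.87 ± 1.00 CPM and -4.49 ± 0.44 (SE). The hypothalamus spanned 2.30 to 12.4 CPM in 7 animals and 40.98 CPM in Rhesus 6, the library with cortical markers. The hypothalamic log2 difference was -2.11 with that library and -2.75 without it. Single animals also moved other GABRA4 differences, from -4.03 to -4.66 in the globus pallidus without Rhesus 3, from -2.99 to -3.62 in the medulla without Rhesus 2 and from -5.36 to -6.63 in the pituitary without Rhesus 11, and each of these kept its call.

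GABRD, the delta subunit, was highest in the cerebellum. The lowest, median and highest cerebellar values were 180, 220 and 384 CPM, all above the cortical 77.7, 85.8 and 101.7 CPM. The difference was 1.40 ± 0.40 (SE) on the log2 scale (FDR 0.00113), in 8 of 8 animals. After the cortex (87.8 ± 8.60 CPM) came the olfactory bulb (72.6 ± 8.00 CPM) and striatum (66.6 ± 13.3 CPM), both overlapping it. The amygdala (54.3 ± 7.54 CPM) and the entorhinal and perirhinal cortex (52.0 ± 8.44 CPM) lay wholly below the cortical range, but with FDRs of 0.159 and 0.13 they were not called. GABRD was called lower in 10 groups, from the hippocampus (40.5 ± 6.12 CPM, log2 difference -1.11 ± 0.39 SE) and thalamus (25.1 ± 5.77 CPM, -1.82 ± 0.41 SE) to the substantia nigra (0.935 ± 1.45 CPM, -6.75 ± 0.58 SE, and -7.69 without Rhesus 4). Those 10 groups took in all 4 brainstem groups, the pons keeping the most among them with 13.5 ± 7.44 CPM.

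For GABRD the 2 libraries with markers of a neighbouring region set the group means. In the hypothalamus, 7 animals lay between 0.654 and 2.25 CPM and Rhesus 6 at 75.1 CPM. In the globus pallidus, 7 animals lay between 0.161 and 1.60 CPM and Rhesus 3 at 13.4 CPM. The log2 difference from the cortex went from -3.61 to -6.22 in the hypothalamus and from -5.29 to -6.54 in the globus pallidus when these 2 libraries were left out. GABRA5 in the globus pallidus of Rhesus 3 was likewise above the other 7 animals (69.8 against 19.7 to 45.5 CPM). None of the 54 calls was lost without both libraries, and the part that neighbouring tissue has in these values was not tested.

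GABRA5, the alpha subunit of extrasynaptic receptors in pyramidal cells, had the most calls above the cortex, 4 of 15, with 8 below. Its hippocampal values were 483, 578 and 682 CPM at the lowest, median and highest, all above the cortical 103.7, 120.4 and 174 CPM. The hippocampus was 4.47-fold higher than the cortex, a log2 difference of 2.16 ± 0.16 (SE) with an FDR of 2.73e-23. The striatum (402 ± 65.1 CPM, 1.65 ± 0.16 SE), the entorhinal and perirhinal cortex (306.5 ± 53.7 CPM, 1.26 ± 0.15 SE) and the amygdala (257 ± 45.7 CPM, 1.01 ± 0.15 SE) were called too. None of them overlapped the summed cortical values. Within the striatum, the putamen by itself had a mean of 104.7 CPM, below the cortical mean of 128.6 CPM, and was not tested against the cortex. The amygdala only just passed 2-fold and fell to log2 differences of 0.93 to 0.98 under 4 other settings. The thalamus, at 202, 244 and 301 CPM, was also above the summed cortical values of all 8 animals, at 0.97 ± 0.15 (SE), just short of 2-fold. The anterior cingulate gyrus by itself spanned 216 to 456 CPM, which overlaps the thalamus, amygdala, striatum, and entorhinal and perirhinal cortex. At the other end, the cerebellum had 13.8 ± 2.89 CPM, a log2 difference of -3.21 ± 0.17 (SE), and lay below the pituitary (20.6 ± 2.74 CPM). GABRA5 was thus lowest in the cerebellum, where GABRA6 and GABRD had their highest means.

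GABRA6, the alpha subunit of cerebellar granule cells, was read from 8082 to 18385 times in each of the 16 cerebellar samples. The cerebellar values were 873, 993 and 1298 CPM, against 0.703, 0.878 and 1.27 CPM in the cortex, and the log2 difference was 10.15 ± 0.27 (SE), with an FDR of 3.39e-61. Outside the cerebellum, 13 samples had 0 counts, 71 had 1 to 3 counts and 308 had more than 3. The median there was 7 counts and the maximum 48 counts, which was 5.41 CPM in the inferior temporal gyrus of Rhesus 11. At such counts the order of the remaining 15 groups is poorly determined. GABRA6 was called lower than the cortex in 7 groups, with a mean of 0.397 CPM in the hippocampus and 0.303 CPM in the striatum as examples. All 8 pituitary libraries together held 2 counts and all 8 corpus callosum libraries 7 counts. At such counts the fitted log2 difference depends on the prior count, and in the pituitary it went from -5.19 to -8.00 without Rhesus 11. The globus pallidus of Rhesus 3 had 3.98 CPM against at most 0.751 CPM in the other 7 animals of that group. The call in the pons (log2 difference -1.02 ± 0.37 SE) fell under 2-fold in 6 of the other settings.

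**Figure D2:**
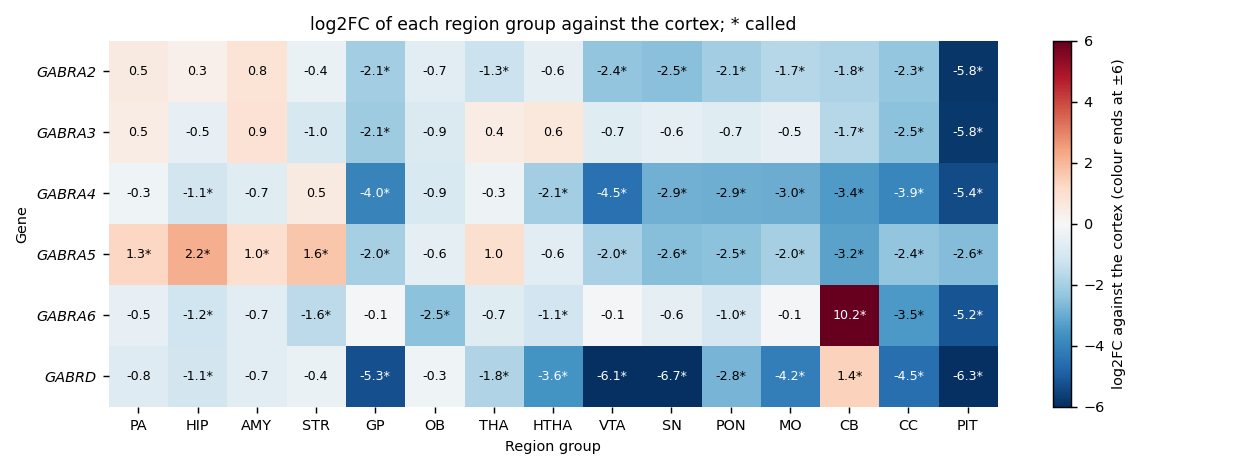
Heat map of the fitted log2 difference from the cortex, with the 6 genes in rows and the 15 region groups in columns, abbreviated as in the plot of levels by region group. Each cell prints its value, an asterisk marks a called difference, and the colours end at a difference of 6 in either direction. The cells called above 0 are GABRA5 in the hippocampus, striatum, entorhinal and perirhinal cortex and amygdala, and GABRA6 and GABRD in the cerebellum.

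Ordering the 16 groups by mean level gave 15 pairs of neighbours per gene, of which few differed by the same edgeR test at an FDR of 0.05. Of the 90 neighbouring pairs 14 differed, where 55.2% of genes did over the same pairs. The pairs were picked as neighbours for the members alone, so the lower share follows from the choice. GABRA5 had 7 of the 14. Its hippocampus lay above its striatum (FDR 0.00326), the striatum above the entorhinal and perirhinal cortex (FDR 0.0294), the thalamus above the cortex and the cortex above the olfactory bulb. Further down, the hypothalamus lay above the globus pallidus (FDR 1.51e-12), the ventral tegmental area above the corpus callosum (FDR 0.0218) and the pituitary above the cerebellum (FDR 0.000606). For GABRA2 a step lay between the olfactory bulb and the thalamus (FDR 0.0121), and for GABRA3 between the striatum and the cerebellum (FDR 0.00239). For both of these genes the pituitary differed from the group next to it. GABRA4 had 1 step, from the hippocampus to the hypothalamus (FDR 0.0184). GABRA6 and GABRD each had only the step below the cerebellum. The remaining neighbours did not pass the test, which does not show that their levels are equal.

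Within structures sampled at several places, 4 of 36 tested pairs of a member and 2 sub-regions were called (FDR under 0.05 and over 2-fold), where 3.49% of all genes' pairs were. The count went to 8 without Rhesus 2, to 7 without Rhesus 4 and to between 4 and 6 without any other animal. All 4 were in the striatum, where 5 of the members passed the filter on low counts and GABRA6 did not. Over its 3 parts 3 of these 5 differed (57% of all genes), and 2 were called higher in the accumbens than in the putamen (8.75% of all genes called) and 2 higher in the caudate than in the putamen (4.82%). GABRA5 was 475, 629 and 705 CPM in the nucleus accumbens and 371, 430 and 526 CPM in the caudate nucleus, but 54.9, 73.3 and 308 CPM in the putamen. The putamen did not overlap either of the others. The accumbens exceeded it by 2.79 ± 0.21 (SE) on the log2 scale (FDR 3.35e-09) and the caudate by 2.27 ± 0.20 (SE). The highest putamen value, 308 CPM, was that of Rhesus 4, and the other 7 animals lay at 54.9 to 131 CPM. Without Rhesus 4 the accumbens exceeded the putamen by 3.05 ± 0.13 (SE).

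GABRA3 followed the same order in the striatum at lower counts. It was 12.4, 16.6 and 28.6 CPM in the accumbens, 4.02, 8.15 and 22.95 CPM in the caudate and 2.19, 4.38 and 6.91 CPM in the putamen. The accumbens and putamen did not overlap, the caudate overlapped both, and both were called higher than the putamen (2.11 ± 0.25 and 1.18 ± 0.25 SE). GABRA4 had another order. Its caudate mean was 76.0 ± 15.3 CPM against 58.3 ± 18.7 CPM in the putamen and 40.2 ± 14.2 CPM in the accumbens. The caudate exceeded the accumbens by 0.95 ± 0.17 (SE) on the log2 scale (FDR 0.000322), under 2-fold, and the putamen exceeded it by 0.53 (FDR 0.0134). GABRD had means of 60.7 to 69.5 CPM in the 3 parts, and its test over them gave an FDR of 0.0605. Oligodendrocyte markers had a median log2 level of 9.53 in the putamen, 7.70 in the accumbens and 8.12 in the caudate, and medium spiny neuron markers one of 8.73, 7.53 and 8.57 in the same order, while neuron markers had medians of 8.67 to 8.78. Their part in the result was not tested. In the accumbens of Rhesus 10 and the putamen of Rhesus 3, cortical glutamatergic markers stood at 5.01 and 4.11 against medians of 1.10 and 0.727.

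In the hippocampus, GABRD was higher in the dentate gyrus than in both fields of Ammon's horn. Its values were 44.4, 55.3 and 80.8 CPM in the dentate gyrus, 24.4, 28.96 and 37.5 CPM in CA1 and 23.6, 27.4 and 45.3 CPM in CA3. The dentate gyrus lay above all CA1 values and overlapped the highest CA3 value. The log2 differences were 0.97 ± 0.13 (SE, FDR 4.48e-05) from CA1 and 0.92 ± 0.13 (SE) from CA3, both just under 2-fold. GABRA4, the usual partner of delta in dentate granule cells, was also higher in the dentate gyrus than in CA1 (24.3 ± 10.2 against 15.2 ± 6.68 CPM, 0.70 ± 0.22 SE, FDR 0.0204). Against CA3 (17.4 ± 4.81 CPM) the GABRA4 difference of 0.41 ± 0.22 (SE) did not pass the test (FDR 0.155). GABRA3 went the other way, with 10.6 ± 2.88 CPM in the dentate gyrus, 20.2 ± 5.98 CPM in CA1 and 18.4 ± 7.59 CPM in CA3, and FDRs of 0.000859 and 0.00398. GABRA5 exceeded CA1 in the dentate gyrus by 0.32 ± 0.07 (SE) on the log2 scale. Over the 3 parts 4 of the 5 members tested differed (32.7% of all genes), GABRA2 being the one that did not. Oligodendrocyte markers had a median log2 level of 6.73 in the dentate gyrus, 7.77 in CA1 and 8.04 in CA3. Neuron markers had 8.96, 9.34 and 9.26 in the same order. Dentate granule cell markers, 2 genes only, had 5.86, 5.26 and 5.10, and the range in the dentate gyrus overlapped both others. The part of these markers in the differences was not tested. Between CA1 and CA3 the FDRs of the 5 members lay between 0.946 and 0.993, and 0.0203% of all genes were called.

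Between the cerebellar cortex and the vermis, 0 members were called by edgeR (0.225% of all genes were) or by DESeq2, and none had an FDR under 0.05 (0.842% of all genes did). By unadjusted p, GABRD alone of the 6 was under 0.05, at 0.0494. GABRA6 had 943 ± 165 CPM in the cerebellar cortex and 1000.0 ± 136 CPM in the vermis. In the cerebellar cortex of Rhesus 4, GABRD was 554 CPM against 188 to 253 CPM in the other 7 animals, and GABRA2 (5.36 CPM), GABRA3 (1.85 CPM), GABRA4 (0.879 CPM) and GABRA6 (710 CPM) were the lowest of the 8. Its granule cell markers, at 9.04, lay within the range of the others, and its neuron markers, at 9.81, were the highest.

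**Figure D3:**
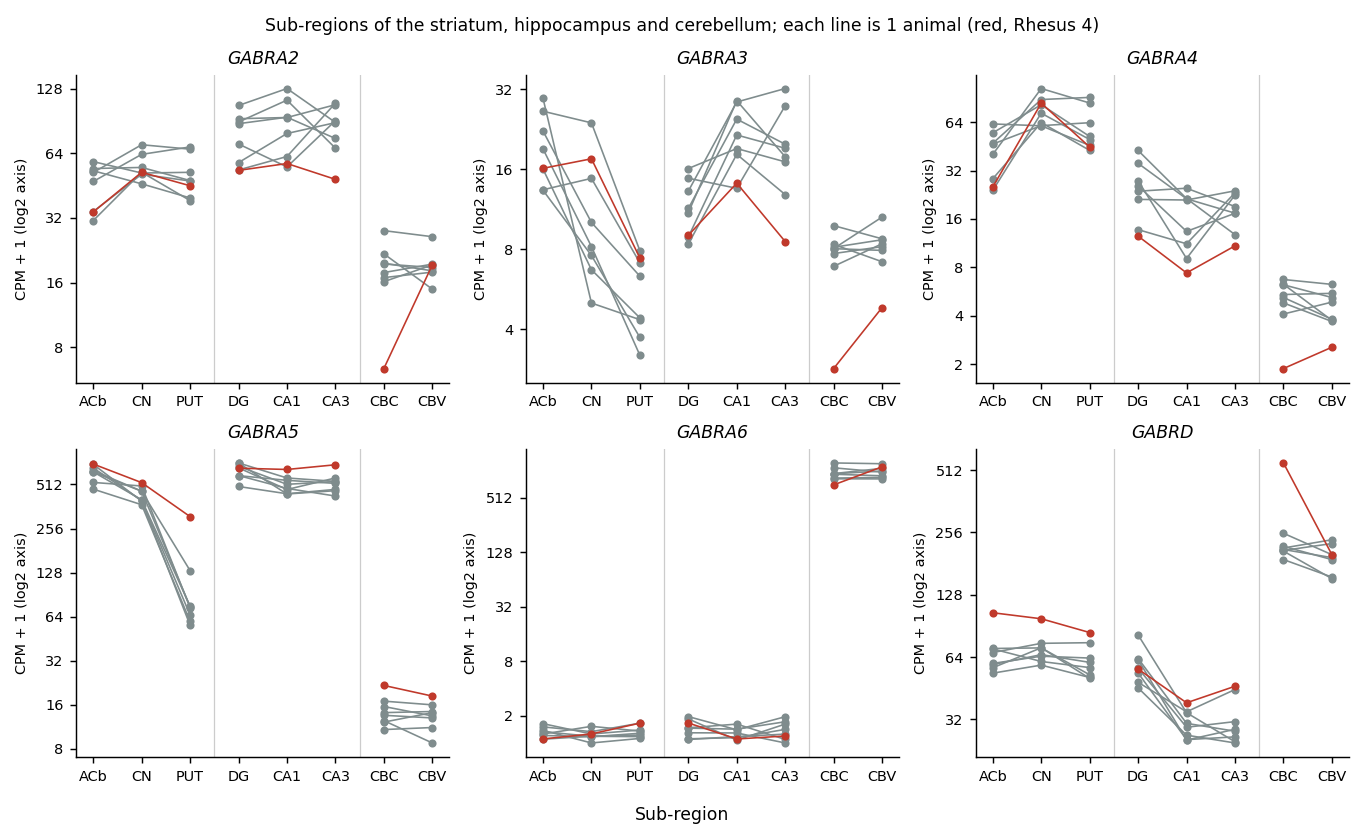
CPM + 1 on a log2 axis for the members in the sub-regions of the striatum (ACb, nucleus accumbens; CN, caudate nucleus; PUT, putamen), hippocampus (DG, dentate gyrus; CA1; CA3) and cerebellum (CBC, cerebellar cortex; CBV, vermis). Each line joins the values of 1 animal, and Rhesus 4 is red. GABRA5 has a mean of 619 CPM in the accumbens and 105 CPM in the putamen, and GABRD one of 57.3 CPM in the dentate gyrus against 29.7 CPM in CA1.

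Within the cortex, 4 of 6 members differed between the 5 lobes at an FDR of 0.05, while 61.5% of all genes did. Of the 60 pairs of a member and 2 lobes, 31 were called, against 30.3% of all such pairs. GABRA3 had 9 of its 10 lobe pairs called, GABRA2 and GABRA5 had 8 each, GABRD had 6, and GABRA4 and GABRA6 had 0 each by edgeR. DESeq2 called 1 pair of GABRA4 and 0 of GABRA6, and at an unadjusted p under 0.05 edgeR had 4 and 0. By the unadjusted p, the test over the lobes gave 0.0471 for GABRA4 and 0.149 for GABRA6. With each of the 31 cortical sub-regions taken by itself, all 6 members differed, among 75% of all genes.

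GABRA3 was highest in the frontal and lowest in the occipital lobe. It was 28.8, 33.4 and 39.9 CPM at the lowest, median and highest in the frontal lobe, 22.6 ± 4.89 CPM in limbic cortex, 20.2 ± 2.88 CPM in the temporal lobe, 15.6 ± 2.22 CPM in the parietal lobe, and 4.18, 5.63 and 8.22 CPM in the occipital lobe. The frontal and occipital values lay far apart, at a 5.81-fold difference, or 2.54 ± 0.11 (SE) on the log2 scale (FDR 6.17e-20). Between these lobes 4 of the 6 members differed, 3 being higher in the frontal and 1 in the occipital lobe, while 59.5% of all genes did. Limbic and temporal values were the 1 pair that did not differ by the test. By sub-region, the ventromedial prefrontal cortex was highest at 45.8 ± 14.04 CPM, and the posterior superior occipital gyrus lowest at 5.06 ± 1.59 CPM.

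GABRA5 had the same order of lobe means, but limbic cortex did not differ by the test from the frontal (FDR 0.387) or the temporal lobe (FDR 0.184). The frontal lobe had 122, 157 and 231 CPM, limbic cortex 153 ± 44.1 CPM, the temporal lobe 134 ± 31.1 CPM, the parietal lobe 91.1 ± 18.8 CPM and the occipital lobe 36.4, 47.9 and 60.7 CPM. Frontal and occipital values did not overlap and differed by 1.78 ± 0.09 (SE) on the log2 scale. The anterior cingulate gyrus stood highest with 303 ± 76.0 CPM, ahead of the ventromedial prefrontal cortex with 223 ± 71.1 CPM, and the posterior superior occipital gyrus was again lowest with 39.1 ± 11.8 CPM.

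GABRA2 had its highest mean in the temporal lobe (61.1, 78.0 and 87.7 CPM) and its lowest in the occipital lobe (39.5, 43.97 and 53.5 CPM), and these ranges did not overlap. The difference was 0.72 ± 0.08 (SE) on the log2 scale (FDR 3.88e-09). Temporal and frontal lobe (70.7 ± 9.82 CPM) did not differ by the test for GABRA2 (FDR 0.479). Its highest sub-regions were the temporal polar gyrus at 99.8 ± 15.0 CPM and the insula at 91.9 ± 16.1 CPM, and its lowest the inferior occipital gyrus at 41.9 ± 5.54 CPM. For GABRA4 the lobe means lay between 35.8 CPM in limbic cortex and 47.9 CPM in the temporal lobe, with an FDR of 0.073 over the lobes.

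GABRD ran opposite to these genes. It was 101.7, 120.3 and 136 CPM in the occipital lobe, 88.2 ± 11.3 CPM in the parietal lobe, 84.4 ± 18.4 CPM in limbic cortex, 71.5, 75.2 and 92.3 CPM in the frontal lobe and 77.02 ± 8.75 CPM in the temporal lobe. All 8 occipital values exceeded all frontal ones, by 0.62 ± 0.07 (SE) on the log2 scale (FDR 4.47e-10), a smaller difference than those of GABRA3 and GABRA5. The 3 occipital sub-regions held the first 3 places of 31, from 130.7 ± 15.2 CPM in the posterior superior to 106.0 ± 12.8 CPM in the anterior superior occipital gyrus. Between the frontal and occipital lobes, mean log2 levels of oligodendrocyte markers were 6.55 and 7.39, of cortical glutamatergic markers 6.82 and 6.34, and of neuron markers 9.73 and 9.70. Their part in the lobe differences was not tested.

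**Figure D4:**
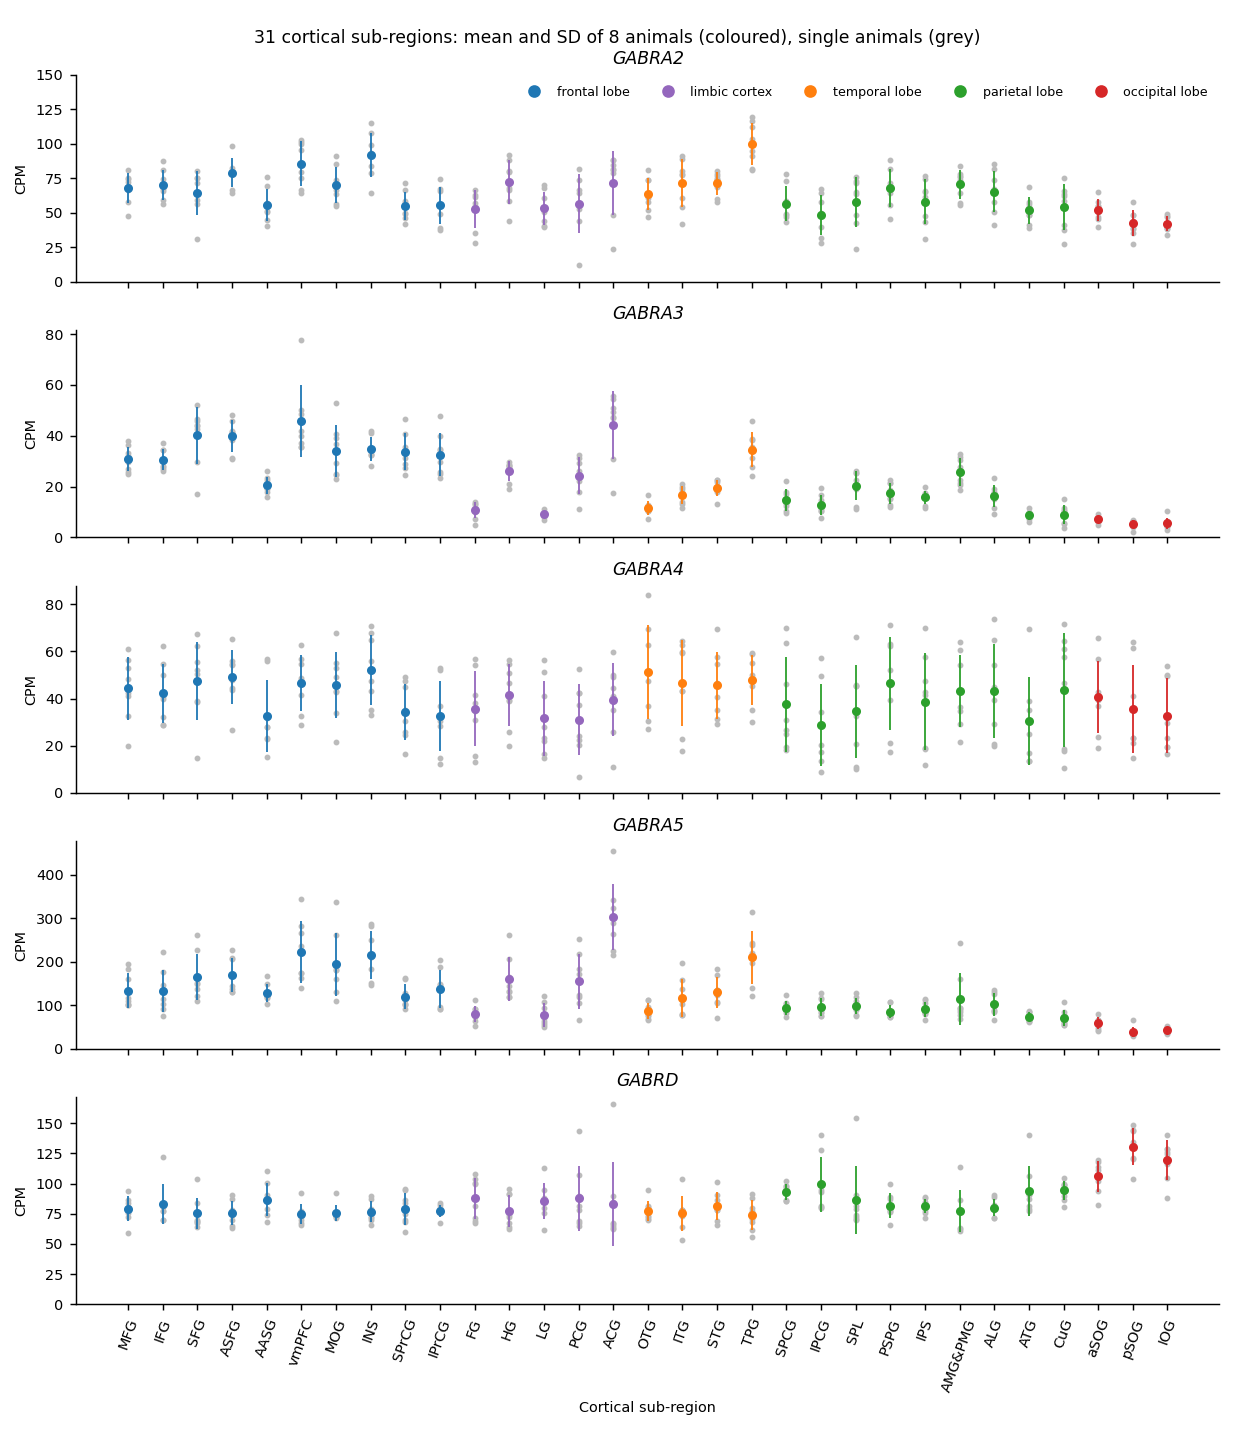
CPM on a linear axis for 5 members in the 31 cortical sub-regions, abbreviated as in the labels (vmPFC is the ventromedial prefrontal cortex, INS the insula, ACG the anterior cingulate gyrus and TPG the temporal polar gyrus). The coloured point and line are the mean and SD of 8 animals, the colour marks the lobe, and grey points are single animals. GABRA6 is not drawn. GABRA3 and GABRA5 have their lowest means in the 3 occipital sub-regions (aSOG and pSOG, the anterior and posterior superior occipital gyrus, and IOG, the inferior one), where GABRD has its highest.

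Across the 31 cortical sub-regions, the means of GABRA3 and GABRA5 on a log2(CPM + 1) scale had a Pearson r of 0.93, those of GABRA3 and GABRD -0.82, and those of GABRA5 and GABRD -0.80. The cluster neighbours GABRA2 and GABRA4 had 0.83. These are descriptions over sub-regions that come from the same 8 brains and share their libraries between genes, and no p is given. Within single animals the r of GABRA3 and GABRA5 was between 0.77 and 0.87 and positive in 8 of 8. That of GABRA3 and GABRD was between -0.88 and -0.36 and negative in each animal. That of GABRA5 and GABRD was also negative in each but ran from -0.84 to -0.03. Over the 20 sub-regions outside the cortex the same pairs had other values, 0.51 for GABRA3 with GABRA5, 0.18 for GABRA3 with GABRD and 0.39 for GABRA5 with GABRD. GABRA4 and GABRA5 had 0.46 in the cortex and 0.81 outside it. Whether the coefficients differ between the cortex and the rest was not tested.

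**Figure D5:**
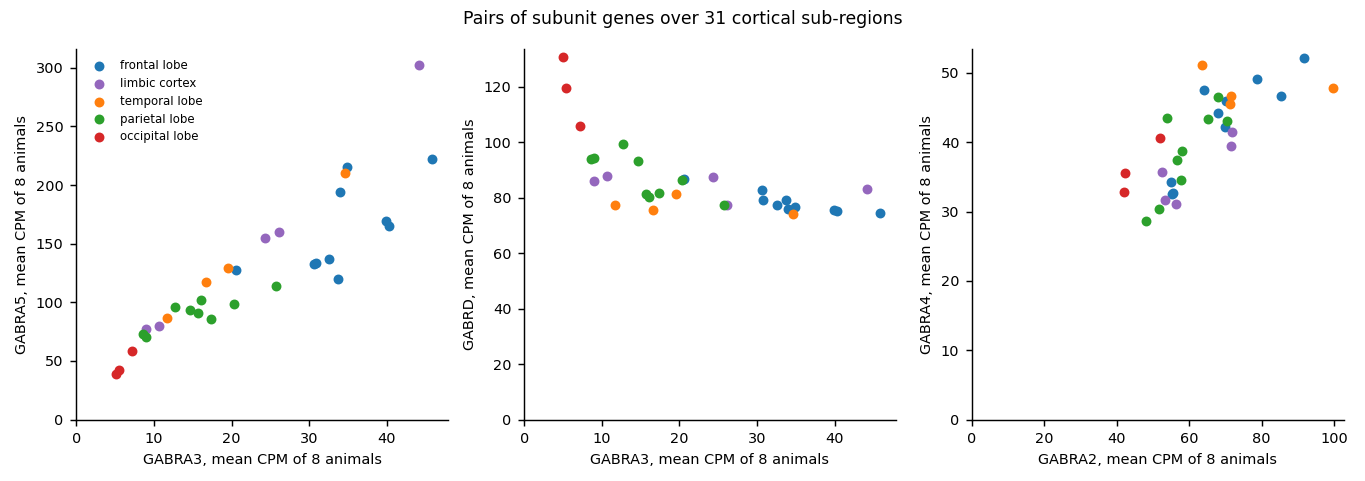
Mean CPM of 8 animals for pairs of members plotted against each other on linear axes, with 1 point for each of 31 cortical sub-regions coloured by lobe. The r values are those of log2(CPM + 1). The occipital sub-regions lie at the low end of GABRA3 and GABRA5 (r = 0.93) and at the high end of GABRD (r = -0.82 with GABRA3).

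The 4 young and 4 mid-aged animals, and the 4 females and 4 males, were compared in each region group in which a member passed the filter on low counts, which gave 86 tests each. No member was called for age at an FDR under 0.1 and over 2-fold, where 0.0166% of all genes' tests were, and none for sex, where 0.102% were (edgeR). At an unadjusted p under 0.05 there were 8 tests for age and 8 for sex. The lowest FDR for age, 0.194, was that of GABRA4 in the entorhinal and perirhinal cortex. The 4 mid-aged animals had 37.8 to 49.8 CPM there and the 4 young ones 22.7 to 28.9 CPM, which did not overlap, with a log2 difference of 0.82 ± 0.14 (SE). GABRA5 in the cortex also did not overlap, with 103.7 to 119 CPM in mid-aged and 122 to 174 CPM in young animals (log2 difference -0.44 ± 0.13 SE, FDR 0.723). By sex, GABRA2 in the medulla was 7.26 to 16.3 CPM in females and 22.5 to 33.9 CPM in males, a log2 difference of -1.22 ± 0.29 (SE) with an FDR of 0.737. DESeq2 gave that comparison an FDR of 0.031, its only call for sex among the members (0.414% of all genes' tests were called by DESeq2), and it made 0 calls for age (0.332% of all genes' tests). Among the 4 females was the medulla of Rhesus 6, the library low in neuron markers, which had the lowest GABRA2 value, and without it the edgeR log2 difference was -1.01 (FDR 0.785). Without Rhesus 7, edgeR called GABRA4 for age in the pituitary and thalamus and for sex in the pituitary, and the calls over all genes went from 42 to 935 for age and from 258 to 2405 for sex. Groups did not overlap in 3 tests of each factor. No share over all genes is given for this count or for that at an unadjusted p, so neither is read as a result.

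Animals differed from each other in ways that neither factor names. Rhesus 4 had the highest GABRA5 in 27 of 51 sub-regions and the lowest GABRA4 in 19 and GABRA3 in 17, where an even spread would give 6.375 each. Rhesus 7 had the highest GABRA3 in 25 sub-regions, and Rhesus 11 the highest GABRA2 in 25 and GABRA4 in 20. GABRD was highest in Rhesus 6 in 17 and in Rhesus 4 in 16. Since the sub-regions of 1 animal share that animal, these counts describe 8 animals and carry no test.

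The other genes of the pathway were read from fixed lists. Of 13 other GABA-A subunit genes, 11 had a row under their symbol and 9 passed the filter. In the cerebellum 3 of these 9 were called higher than the cortex and 0 lower, with a median log2 difference of 0.44, against 2 members higher and 4 lower with a median of -1.77. All genes had a median of 0.03 there and 25.7% called. In the hippocampus 3 of the 9 were higher and 2 lower, against 1 and 3 of the 6 members (12.4% of all genes called). In the pituitary all 6 members were called lower, with a median of -5.58, and of the other subunits 4 were lower and 2 higher (44.7% of all genes called). Of 8 genes for GABA synthesis, uptake and chloride transport, 6 were called lower in the pituitary (median -4.05) and 6 lower and 1 higher in the corpus callosum (44.2% of all genes called), where all 6 members were lower. In the pons 4 were lower and 1 higher (median -1.26, 24.9% of all genes called). In the hippocampus 3 were lower and 0 higher (median -0.88), where 3 members were lower and 1 higher. In the globus pallidus the list went another way than the members, with 1 lower and 2 higher (median 0.13), where 5 members were lower. The list also had 1 lower and 2 higher in the ventral tegmental area (median 0.20) and 2 lower and 2 higher in the medulla (median -0.58). In each of these, 4 members were lower. In the striatum 2 of these 8 were higher and 0 lower (16.9% of all genes called). Of 6 scaffold and assembly genes, a list with GPHN (gephyrin, the anchor of synaptic receptors) and GABARAP among others, 2 were called lower in the pituitary, and 2 lower and 1 higher in the corpus callosum.

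The subunit genes next to the members did not all share their profile. Over the 51 sub-regions GABRA2 had an r of 0.86 with GABRA4 and 0.81 with GABRB1, and 0.54 with GABRG1. GABRA4 had 0.84 with GABRB1 and 0.31 with GABRG1. GABRA5 had 0.57 with GABRG3. GABRA6 had 0.28 with GABRB2, whose level was 143 ± 44.2 CPM in the cerebellum and 105.3 ± 40.7 CPM in the cortex. That r rests largely on the 2 cerebellar sub-regions. The rank correlation of this pair was 0.65, with low counts of GABRA6 outside the cerebellum. GABRA3 and GABRE, on the X chromosome, had -0.28, and GABRE was highest in the corpus callosum, where GABRA3 was next to lowest. As above, these correlations are descriptions over means of the same 8 animals.

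Among 16732 genes, those with the profile most like a member's over the 51 sub-regions were named by rule. For GABRA2 they were DPF1 (r = 0.96), GRIA3 (0.94), which encodes an AMPA glutamate receptor subunit, and CORO1A (0.92). For GABRA3 they were RAB27B (0.90), TBC1D13 (0.89) and ARHGAP35 (0.85). For GABRA4 they were RHOBTB2 (0.95), SEPTIN11 (0.94) and CYRIA (0.93). For GABRA5 they were EPHA6 (0.92), an ephrin receptor, CNIH2 (0.91), an AMPA receptor auxiliary subunit, and STK25 (0.91). For GABRD they were CEP68, KDM2B and SUGP2 (each 0.93). For GABRA6 they were CDH15, SLC22A31 and NHLH1 (0.98 each), a likeness that rests on the 2 cerebellar sub-regions, since the rank correlations were -0.11, -0.13 and 0.28.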

How the data were processed

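RNA depleted of ribosomal RNA was made into directional libraries and sequenced on an Illumina HiSeq instrument. Per the study's methods, the authors checked reads with FastQC 0.11.4, quality-trimmed those samples whose reads were poor with Trim Galore 0.4.4, aligned reads to Mmul 8.0.1 with HISAT2 2.0.5 and counted them per Ensembl gene with HTSeq 0.6.1. How HTSeq treated strand and overlapping genes is not given in the sources used here, so reads shared with an overlapping or antisense gene cannot be told apart. The deposited values are raw counts without normalization, for 1 sample of each of 51 sub-regions in each of 8 animals. Midbrain and chromatin accessibility samples were not analysed here, and a table of assembled transcripts was not used here.

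Counts were fitted over all genes with edgeR 4.0.16 (quasi-likelihood, TMM scaling, low-count filter filterByExpr) in R 4.3.3, with region and animal as terms as in the study's model, and p-values were adjusted over all genes tested (FDR). Age and sex were fitted together over animals. The SE is the log2 difference divided by the square root of F. Sub-regions of 1 group were added up within each animal. The scripts were tested on simulated data. Alternatives were DESeq2 1.42.0, its size factors, other count filters, no animal term, each animal left out, and, chosen after seeing the data, 2 libraries left out and each animal left out within structures. The numbers pair samples because they name the animal. Across 960 same-animal pairs of region groups the deviations from the group means correlated with a median r of 0.42, and 91.5% were over 0.1, against a median of -0.06 for other pairs.

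Symbols came from a table of Ensembl IDs and names that matched 17572 of 30807 genes. GABRQ, LHFPL4 and NLGN2 had no row under their symbols. Genes were named by a rule: the 6 members, the 3 most similar genes of each over means of log2(CPM + 1) (genes with a mean of at least 1 CPM in a sub-region), and the subunit genes of a member's cluster, of which some are not reported here. The members, lists and tests were chosen with earlier results of these data known.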

Additional observations from a re-analysis of the deposited data

Results flagged for a closer look

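In each group of 8 animals in which a member had a median of at least 1 CPM, the highest and lowest values were checked for a gap to the rest of the group (Dixon's ratio against its 95% limit for 8 samples). Of 143 groups 13 had such a value, and chance alone gives about 1 in 20 groups. Rhesus 4 held 10 of the 13.

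In Rhesus 4, GABRD was highest in the cerebellum as a whole (384 CPM against 180 to 240 CPM in the other 7 animals), in the cerebellar cortex (554 CPM against 188 to 253 CPM), in the striatum as a whole (97.4 CPM against 54.2 to 71.5 CPM), in the nucleus accumbens (103.8 CPM against 52.5 to 69.4 CPM) and in the caudate nucleus (97.0 CPM against 57.5 to 73.6 CPM). The same animal was lowest for GABRA3 in the cerebellum (2.85 CPM against 6.80 to 8.69 CPM) and the cerebellar cortex (1.85 CPM against 5.91 to 8.83 CPM), for GABRA4 in the cerebellum (1.22 CPM against 3.39 to 5.79 CPM) and the cerebellar cortex (0.879 CPM against 3.10 to 5.73 CPM), and for GABRA2 in the cerebellar cortex (5.36 CPM against 15.2 to 26.9 CPM). The whole structures contain these sub-regions, so the flags are not separate observations.

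The other 3 were GABRD in the hypothalamus of Rhesus 6 (75.1 CPM against 0.654 to 2.25 CPM), GABRD in the globus pallidus of Rhesus 3 (13.4 CPM against 0.161 to 1.60 CPM) and GABRA3 in the globus pallidus of Rhesus 2 (0.866 CPM against 4.01 to 8.70 CPM). The globus pallidus of Rhesus 2 had the lowest neuron markers of its group (mean log2 level 6.71 against a median of 7.68) and the highest oligodendrocyte markers (11.82 against 11.36), and their part in the value was not tested. The hypothalamus of Rhesus 6 had the highest cortical marker level of its group and the globus pallidus of Rhesus 3 the highest striatal marker level, as described above.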

How the results depend on the processing

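No called difference reversed. Calls against the cortex numbered 54, 53 with DESeq2 and 53 to 56 with each animal left out, and 6 of 6 members differed across groups in each of these fits. GABRA5 in the amygdala fell below 2-fold under the detection filter (0.94), without a filter (0.93) and without Rhesus 7 (0.98) or Rhesus 11 (0.97), and GABRA6 in the pons in 6 settings (as far as -0.87). DESeq2 did not call GABRD in the hippocampus (-1.10). Leaving out the hypothalamus of Rhesus 6 and the globus pallidus of Rhesus 3 removed no call. With no replicate block, calls were 54 against the cortex, 11 between neighbours instead of 14, 4 within structures, 6 instead of 7 for the test over parts of a structure, 22 instead of 31 between lobes and 5 instead of 6 over cortical sub-regions. Within structures the 4 calls ranged from 4 to 8 with each animal left out, 8 without Rhesus 2 and 7 without Rhesus 4, and the calls of GABRA5 and GABRA3 in the striatum were made in 8 of 8 fits. For age, 0 calls ranged from 0 to 2, and for sex from 0 to 1, both highest without Rhesus 7, while DESeq2 made 1 for sex. The cause was not tested. Over the 51 sub-regions Spearman's rho moved 14 of 15 correlations of members (GABRA2 with GABRA4 from 0.86 to 0.61), 5 of them to the other sign (GABRA3 with GABRD from 0.24 to -0.16 and GABRA5 with GABRD from 0.33 to -0.17, and 3 pairs with GABRA6), and a pseudocount of 0.1 CPM moved 4. Depth limits GABRA6 outside the cerebellum, where its median was 7 counts.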
